A study of Mus musculus with 9 samples.

Results

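Chemokine and chemokine receptor genes were taken as the probe sets that name a single gene called Ccl, Cxcl, Ccr or Cxcr followed by a number, with Ccl5, Ccr2, Cxcr2 and Cxcl15 left out. This gave 52 probe sets of 40 genes among 22690 on the array, which name 12394 genes: 16 probe sets of 11 CXC ligands, 20 of 17 CC ligands, 5 of 4 CXC receptors and 11 of 8 CC receptors. A probe set is the group of short probes that reads 1 transcript region, and 11 of these genes had more than 1. Another 4 probe sets that name several genes were not used. The rule uses names and no measured value, but it was set with earlier results of these data known.

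The study measured lung RNA of FVB/N mice that carried normal human CFTR, the epithelial chloride channel, as a cDNA driven by the Sftpc promoter in respiratory epithelial cells of adult animals. Wild-type mice (WT) carried no transgene, heterozygous mice (HE) carried SP-C-hCFTR on 1 allele and homozygous mice (HO) on 2, with 3 Affymetrix 430A arrays in each group. The genotype fields give intact mouse Cftr (mCftr+|+) in all groups, so the transgene adds to the mouse gene; WT replicate 3 has no genotype field and was grouped by its title. HO replicate 2 is homozygous by its title and genotype field, while the genotype written in its description has 1 allele. Replicate numbers 1, 2 and 3 go with the numbers 3, 9 and 11 at the start of the source names, whose meaning the labels do not give. The labels speak of triplicate samples without saying that each came from its own animal, and the spread that enters each p-value may therefore be technical.

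Chemokines are small secreted proteins that guide leukocytes along a gradient through receptors coupled to G proteins on the cell surface. CXC and CC ligands are named for the spacing of their conserved cysteines, and many ligands share a receptor. In the lung, epithelial cells, macrophages and stromal cells make inducible ligands during inflammation, while a few ligands are made at rest and place lymphocytes and other leukocytes in the tissue.

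Across genotypes, no chemokine or receptor probe set passed the test. Cxcr4, the receptor of Cxcl12, was lower on every HE and HO array than on any WT array, at 0.755 (HO) and 0.756 (HE) of the WT mean signal, but the difference did not pass the adjusted threshold. Across replicate numbers, Cxcl2, a ligand that draws neutrophils, was 2.97-fold higher on number 2 than on number 1 and passed the test (log2 difference 1.57 ± 0.18, SE, 3 arrays per number), a call past the threshold in 7 of 17 alternatives and lost on leaving out any of 7 of the 9 arrays.

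Signals below are linear intensities as deposited, on arrays scaled to a common mean. Probes differ in brightness, so signals of different genes are not compared as levels; brightness served only to filter probe sets and to choose which to name. Array medians ran from 697.1 to 741.8, and the 3' to 5' ratio of the control probe sets was at most 1.39 for Actb and at most 0.885 for Gapdh. All 7 markers of alveolar epithelium on the list were measured and passed the filter on dim probe sets, with summed signals between 220683.2 and 284870.4. Of the 11 neutrophil markers measured, 8 passed the filter and none lay at the floor on all arrays. Their summed signal was uneven, at 14521.9, 52214.6 and 16340.8 on the WT arrays, 15965.2, 32470.3 and 68803.4 on the HE arrays and 30745.7, 12580.5 and 13290.2 on the HO arrays, replicates 1 to 3 in order. These are bulk samples, in which fewer cells of a type and less RNA per cell cannot be told apart.

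Of the 52 probe sets, 24 of 18 genes passed the filter (a mean log2 signal of at least 8.90, the 40th percentile of all probe sets) and were tested among the 13576 that did. The 24 comprised 11 probe sets of 7 CXC ligands, 8 of 6 CC ligands, 3 of 3 CXC receptors and 2 of 2 CC receptors. The other 28 probe sets had medians from 34.2 to 389.4, and 5 touched the floor of 25.5 on at least 1 array. For 22 genes no probe set passed: the ligands Ccl1, Ccl2, Ccl3, Ccl7, Ccl11, Ccl12, Ccl20, Ccl22, Ccl24, Ccl25, Ccl28, Cxcl5, Cxcl9, Cxcl10 and Cxcl11 and the receptors Ccr1, Ccr3, Ccr4, Ccr8, Ccr9, Ccr10 and Cxcr5.

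**Figure D1:**
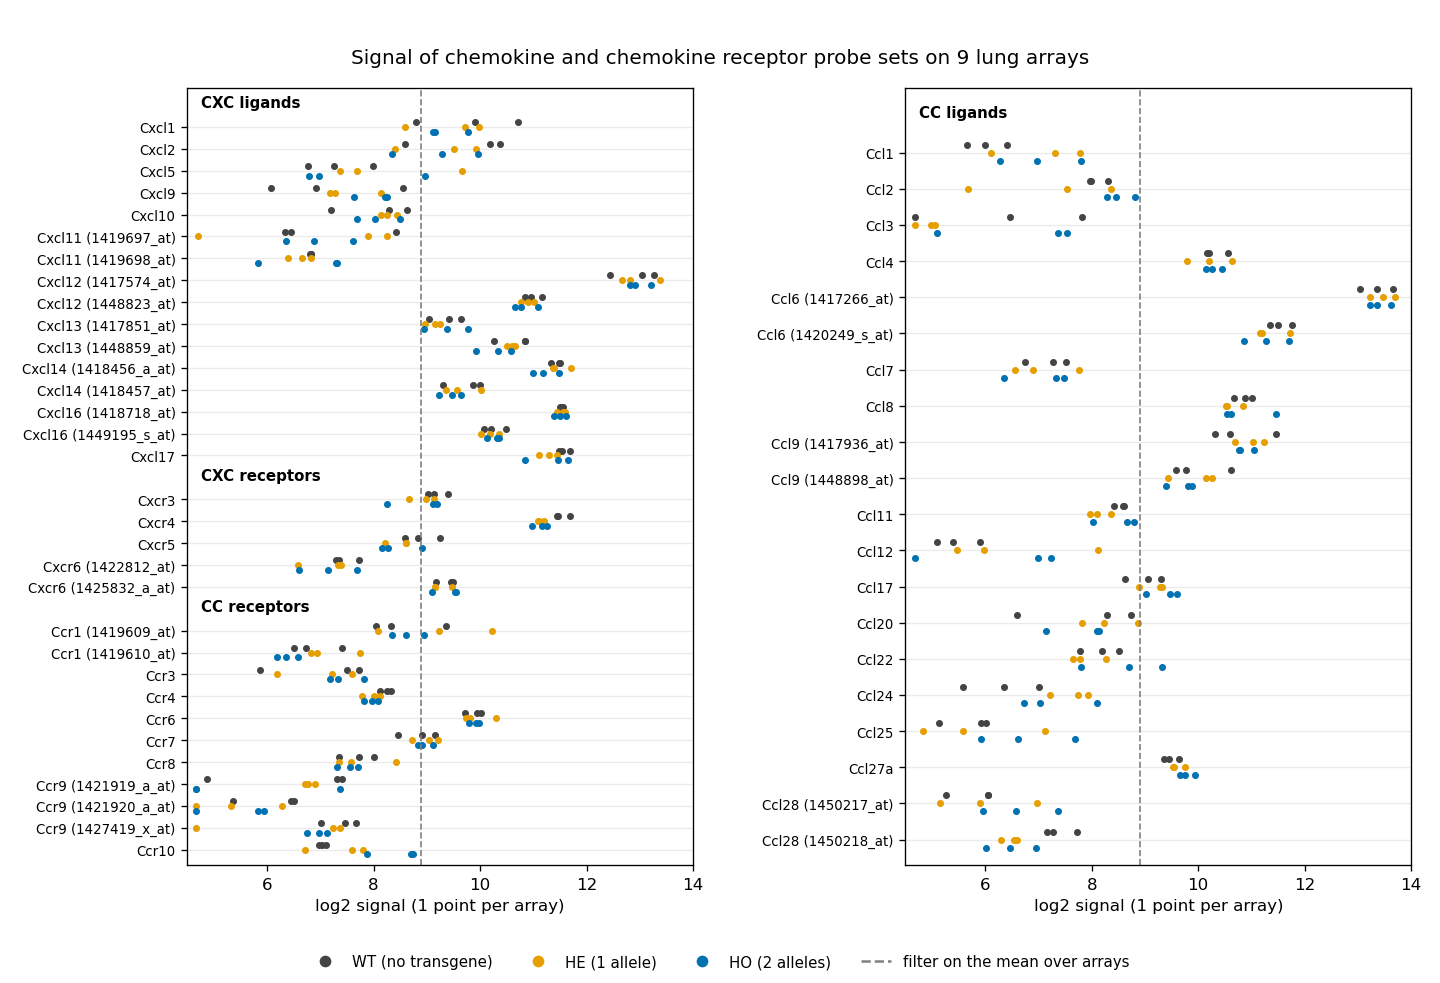
Signal of the 52 chemokine and receptor probe sets on the 9 arrays, with 1 row per probe set, 1 point per array at its log2 signal, colour for genotype and a dashed line at the filter on the mean. The tested sets have median linear signals between 479.9 and 10526.8, and the widest spreads among them are those of Cxcl1 and Cxcl2.

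In the tested probe sets, the highest of the 9 array signals was 1.17 to 4.31 times the lowest, with a median of 1.79. In 19 of 24 it was under 2 times. No such ratio was taken over all probe sets. The median standard error in HO against WT was 0.20 for members and 0.16 for all probe sets. Cxcl16, the transmembrane ligand of Cxcr6, was the most even, between 2698.8 and 3155.2. The widest were Cxcl1, at 4.31 times, and Cxcl2, at 4.06 times, both ligands of the neutrophil receptor Cxcr2. They were followed by both sets of Ccl9, a ligand of Ccr1, at 2.33 and 2.22 times, and by Cxcr3, the receptor of interferon-induced ligands, at 2.21 times.

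Among the ligands, Ccl6, a macrophage and neutrophil-lineage ligand found in rodents, ran from 8384.2 to 13219.9 with a median of 10526.8. Cxcl12, the stromal ligand of Cxcr4, ran from 5567.2 to 10687.3 at its brighter set. Cxcl17, a mucosal ligand, ran from 1833.8 to 3316.7, Cxcl14 from 2032.9 to 3335.3 and Ccl8, a monocyte ligand, from 1461.9 to 2804. The highest Ccl8 value was on HO replicate 1, and the other 8 arrays lay at or below 2063.2.

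The first comparison asked how the transgene on 2 alleles differed from none. Cxcr4 was lower and Ccl27a higher on all 3 HO arrays than on any WT array, and HO and WT overlapped for every other tested member. No probe set of 13576 was past an adjusted p of 0.05 in HO against WT (0%; limma with Benjamini-Hochberg adjustment, lowest 0.602), and the F test over the 3 genotypes also had 0 past it (0%), with 1 of 24 members at an unadjusted p under 0.05 beside 3.09%. Of the 24 members, 0 passed the test, and 2 had an unadjusted p under 0.05 (8.33%), beside 4.49% of all probe sets. Their log2 differences ran from -0.52 to 0.37 with a median of -0.02, beside -0.01 over all probe sets. In sign, 11 were higher and 13 lower, and 51.2% of all probe sets were lower. The median standard error was 0.20 for members and 0.16 for all probe sets, so differences the size of most of these were not detectable with 3 arrays a group.

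Cxcr4 had the lowest p. Its signal was 2836.5, 2775 and 3322.8 on the WT arrays, 2352.1, 2177 and 2205 on the HE arrays and 2004.4, 2454.3 and 2288.9 on the HO arrays. Every transgenic array lay below every WT array, and HE and HO arrays overlapped. Cxcr4 was the 1 member of 24 (4.17%) for which all 6 transgenic arrays stood apart from WT, beside 2.08% of all tested probe sets. The log2 difference was -0.41 ± 0.13 (SE, n = 3 per group, 95% interval -0.69 to -0.12) in HO against WT and -0.40 ± 0.13 in HE against WT, with unadjusted limma p of 0.0101 and 0.0103. The adjusted limma p was 0.992 and 0.9997, so neither passed. The pair of contrasts shares its WT arrays. Within replicate numbers 1, 2 and 3, HO minus WT was -0.50, -0.18 and -0.54, and HE minus WT was -0.27, -0.35 and -0.59.

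Cells that carry Cxcr4 in lung include T, B and myeloid cells. The summed signal of 13 measured T and NK cell markers ran from 9454.5 to 11410.3 in WT, 9584.5 to 10612.1 in HE and 9539.7 to 12688.3 in HO. The 7 measured B cell markers summed to between 6646.2 and 7299 in WT, 4815.8 and 7045.9 in HE and 5196.1 and 8401.9 in HO. The 10 measured monocyte and interstitial macrophage markers summed to between 60379 and 79763.6 in WT, 72608.6 and 78065.7 in HE and 64737.5 and 83602.3 in HO. The ranges of all 3 lists overlapped between genotypes, and no marker of theirs was at the floor on all arrays. Of the tested B cell markers, 6 of 6 were lower in HE against WT (median log2 difference -0.34) and 4 of 6 in HO (-0.11). Of the tested T and NK cell markers, 7 of 11 were lower in HE (-0.12) and 6 of 11 in HO (-0.02), and of the monocyte and interstitial macrophage markers 7 of 10 in HE (-0.03) and 5 of 10 in HO (-0.03). Of the tested neutrophil markers, 8 of 8 were lower in HO against WT (-0.20) and 2 of 8 in HE against WT (0.27). In both contrasts 0 of them had an unadjusted limma p under 0.05. The part of these cells in the Cxcr4 values was not tested. Cxcl12, the ligand of Cxcr4, showed no such order: its log2 difference in HO against WT was 0.07 ± 0.24 at its brighter set and -0.15 ± 0.15 at the other.

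Ccl27a, a skin and mucosal ligand of Ccr10, was the member higher in HO with the lowest p. It read 654, 802.3 and 699.7 in WT, 735.4, 856.5 and 742.7 in HE and 863.8, 985.7 and 808.1 in HO. Each HO array lay above all WT arrays, while HE overlapped both, and within each number the order was WT, HE, HO. The log2 difference was 0.30 ± 0.14 in HO and 0.12 ± 0.14 in HE, with an unadjusted limma p of 0.0493 and an adjusted p of 0.992 in HO. Its probe set is of the _x_at kind, with probes that can bind other transcripts, and the mouse genome has a near-identical copy, Ccl27b, so the source of this signal is uncertain.

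Cxcr4 and Ccl27a were the members whose HO and WT arrays did not overlap: 2 of 24 (8.33%), beside 8.88% of all tested probe sets. The next in p overlapped. Ccl17, a ligand of Ccr4 from dendritic cells, read 533.3, 628.4 and 394.7 in WT, 642, 476.2 and 619 in HE and 709.8, 777.2 and 517 in HO, a log2 difference of 0.37 ± 0.21 in HO. Cxcr3 read 673.6, 559 and 519.7 in WT and 304.6, 584.8 and 553.8 in HO (log2 difference -0.33 ± 0.24), and its low mean in HO came from replicate 1.

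Cxcl13, the ligand that gathers B cells through Cxcr5, differed between its probe sets. At the brighter set it read 1843.1, 1851.1 and 1220.5 in WT, 1623.2, 1463.9 and 1558 in HE and 1527.3, 974.5 and 1300.8 in HO, a log2 difference of -0.37 ± 0.20 in HO. At the other it read 797.9, 680.5 and 528.3 in WT, 604.3, 569.2 and 502.5 in HE and 874.9, 667.6 and 495.7 in HO, a log2 difference of 0.00 ± 0.21. Neither passed the test. Of 6 genes with more than 1 tested set (Ccl6, Ccl9, Cxcl12, Cxcl13, Cxcl14 and Cxcl16), the HO minus WT difference had the same sign in all sets for 1, Cxcl14. Its sets were at -0.23 ± 0.16 and -0.28 ± 0.22, and the brighter read 2877.7, 2580.5 and 2915.1 in WT, 2651.8, 2684.5 and 3335.3 in HE and 2861.1, 2322.3 and 2032.9 in HO.

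**Figure D2:**
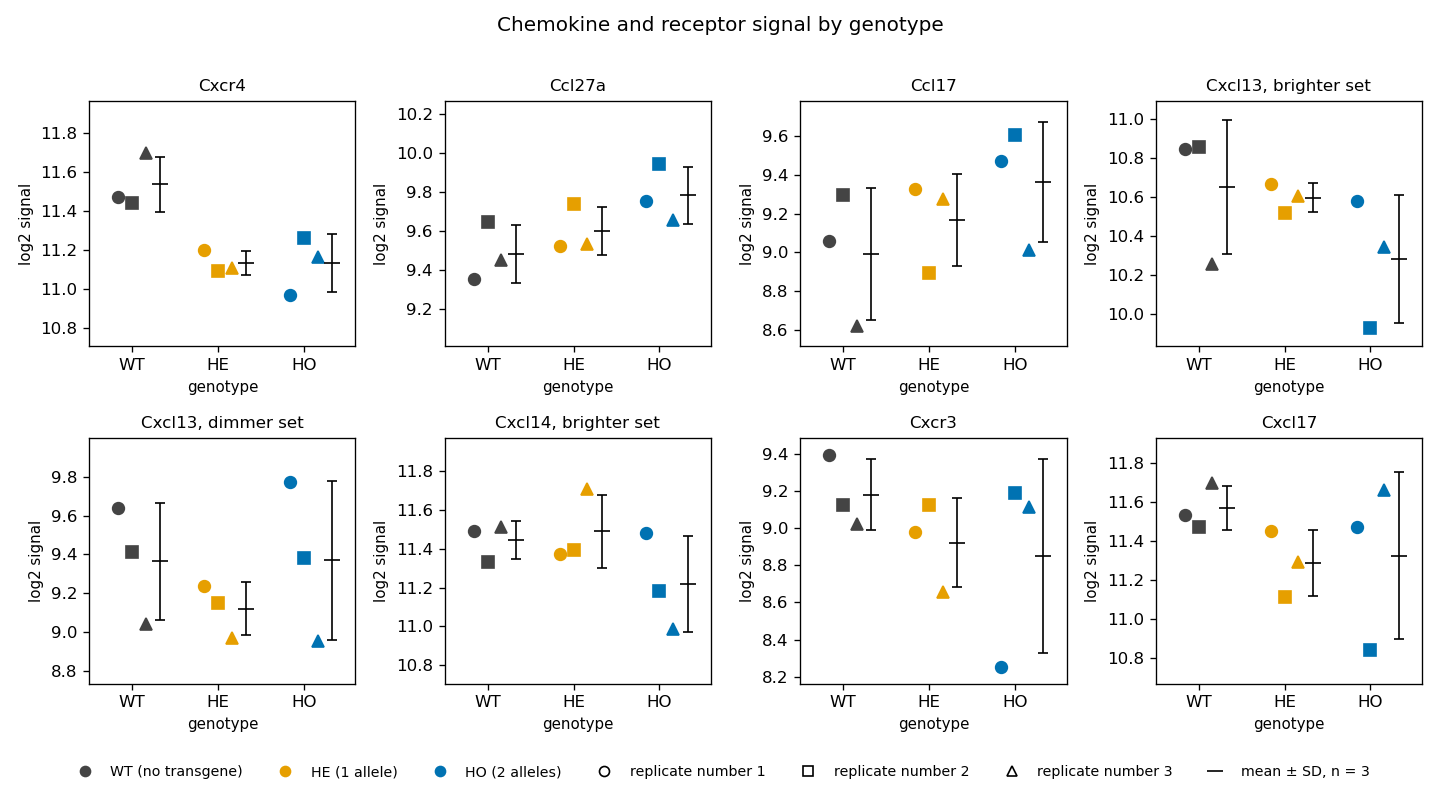
Log2 signal of 8 chemokine and receptor probe sets by genotype, with 1 point per array, shapes for replicate number, and mean ± SD (n = 3); each panel has its own range. Cxcr4 is the panel in which all HE and HO points lie below all WT points, and the Cxcl13 panels show its sets differing in HO against WT.

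In HE against WT, the transgene on 1 allele against none, 0 of 13576 probe sets passed (0%, limma with Benjamini-Hochberg adjustment). Cxcr4 was the 1 member of 24 with an unadjusted p under 0.05 (4.17%), beside 3.11% of all probe sets. The median log2 difference of members was -0.07, beside -0.01 over all, and 16 of 24 were lower, beside 52.2% of all probe sets. Cxcl17, which attracts monocytes at mucosal surfaces, read 2967.5, 2845.1 and 3316.7 in WT, 2799.8, 2217.2 and 2505.3 in HE and 2841.7, 1833.8 and 3237.1 in HO. All HE arrays lay below all WT arrays while HO overlapped both, and the log2 difference was -0.28 ± 0.20 in HE and -0.24 ± 0.20 in HO. Members whose HE and WT arrays did not overlap numbered 2 of 24 (8.33%), beside 7.7% of all.

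Ccr7, the receptor that takes dendritic and T cells to lymph nodes, was at 0.16 ± 0.19 in HE against WT and 0.12 ± 0.19 in HO. Ccl9 was at 0.19 ± 0.26 in HE and 0.07 ± 0.26 in HO at its brighter set, and at -0.05 ± 0.28 and -0.30 ± 0.28 at the other. Ccl17 was at 0.17 ± 0.21 in HE. Its sign in HE turned without WT replicate 3, to -0.01. Without WT replicate 1, the sign turned for Ccr7 and for the brighter Ccl9 set in both contrasts, to -0.03 and -0.05 in HE and -0.07 and -0.16 in HO.

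In HO against HE, the contrast of 2 transgenic alleles with 1, 0 of 13576 passed (0%, limma with Benjamini-Hochberg adjustment). Of the members, 0 of 24 had an unadjusted p under 0.05, beside 2.56% of all probe sets. In sign, 15 of 24 were lower, beside 48.6% of all. HO and HE arrays overlapped for all 24 members, beside 6.66% of all tested probe sets that did not; with dim sets included, 3 of 52 (5.77%) did not, beside 6.88%. The lowest p were those of the brighter Cxcl14 set, at -0.27 ± 0.16, and the brighter Cxcl13 set, at -0.31 ± 0.20. Cxcr4 was at 0.00 ± 0.13, with a 95% interval of -0.29 to 0.29. Ccl8 was at 0.23 ± 0.22, which rested on HO replicate 1 and was -0.06 without it.

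**Figure D3:**
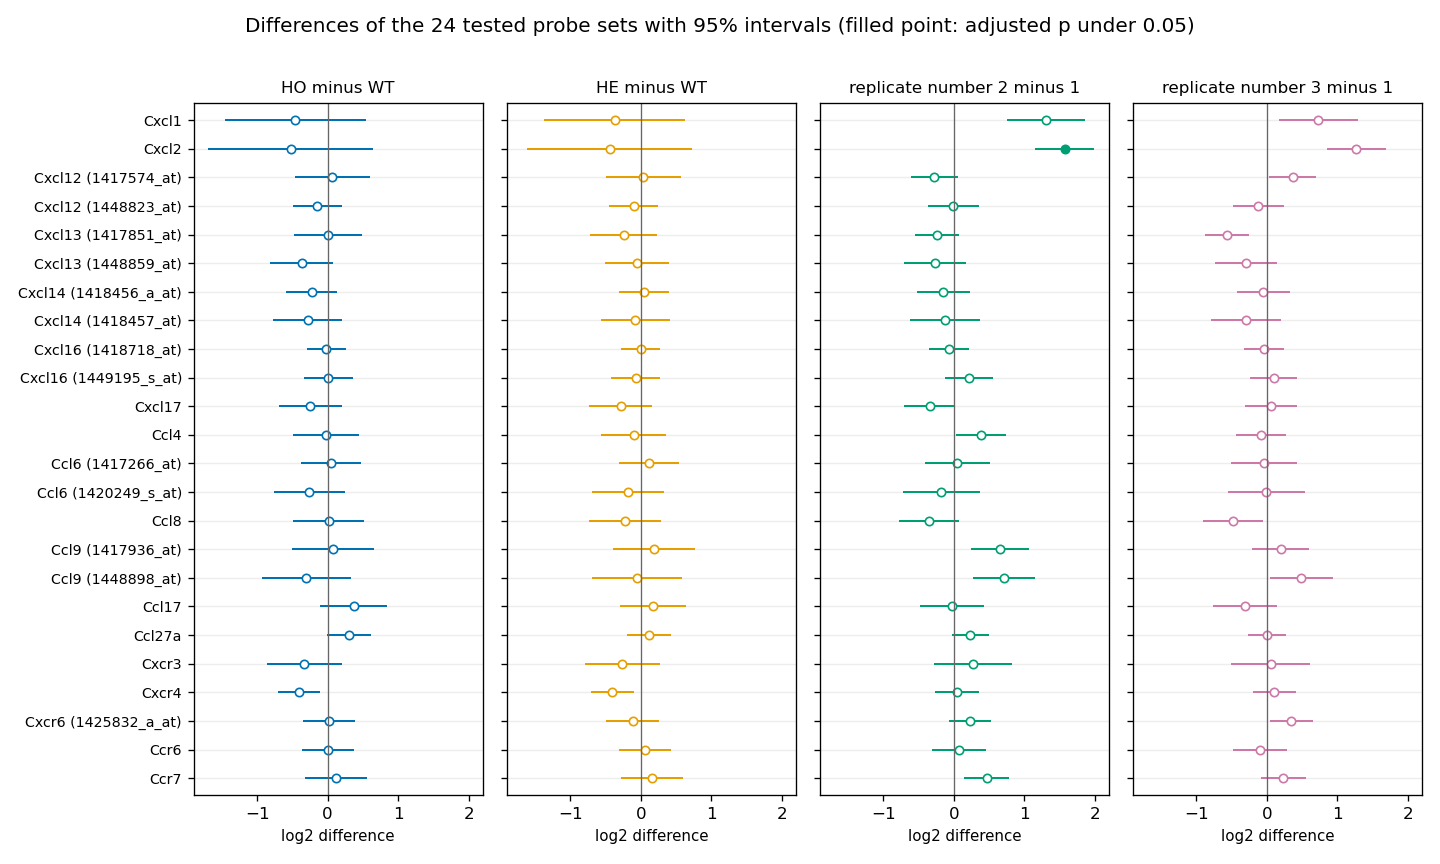
Log2 differences with 95% intervals for the 24 tested chemokine and receptor probe sets, in HO and HE against WT and in replicate numbers 2 and 3 against 1; a filled point has a limma adjusted p under 0.05. Genotype differences lie between -0.52 and 0.37, while Cxcl2 reaches 1.57 for number 2 against number 1.

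Between replicate numbers Cxcl2 differed past the threshold. Cxcl1, Ccl4, Ccl27a, Ccr7 and the brighter set of Ccl9 were each highest on number 2 in every genotype, as were the untested Cxcl5 and Cxcl10. Number 1 was the highest in every genotype for the dimmer Cxcl13 set and the untested Ccl1 and Ccl2. Number 3 was so for the brighter Cxcl12 set and an untested Cxcl11 set. Counting any number, the same one was highest in all genotypes for 7 of 24 tested members (29.2%), beside 17.5% of all tested probe sets. The numbers were compared in a fit with genotype as a second term. The F test over the 3 numbers had 2 of 13576 probe sets past an adjusted p of 0.05 (0.0147%; limma with Benjamini-Hochberg adjustment), none of them a member. Of the members, 8 of 24 had an unadjusted p under 0.05 (33.3%), beside 12% of all probe sets. In number 2 against number 1, 4 of 13576 passed (0.0295%), and 1 was a member, Cxcl2. In number 3 against 1 and number 3 against 2, 0 of 13576 passed (0%), and members at unadjusted p under 0.05 were 7 of 24 (29.2%) beside 11.6% and 6 of 24 (25%) beside 8.61%. In number 2 against 1 they were 6 of 24 (25%) beside 11.2%. Members lower were 11 of 24 in number 2 against 1 (beside 50.1% of all), 12 in number 3 against 1 (beside 50.1%) and 17 in number 3 against 2 (beside 48.3%).

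Cxcl2 is made by macrophages, neutrophils and epithelium and draws neutrophils through Cxcr2. It read 386.4 in WT, 339.9 in HE and 327.4 in HO on the arrays of number 1. On those of number 2 it read 1166.5, 975.6 and 992.2, and on those of number 3 it read 1330, 727.3 and 620.8, in the same order of genotypes. Each array of number 1 was lower than every array of the other numbers, and within each number WT was the highest.

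The log2 difference of Cxcl2 was 1.57 ± 0.18 in number 2 against 1 (95% interval 1.17 to 1.98; limma adjusted p = 0.0363 with Benjamini-Hochberg adjustment). It was 1.27 ± 0.18 in number 3 against 1 (limma adjusted p = 0.152), and the F test over the numbers had an adjusted p of 0.108. Among the leave-one-out fits, the call in number 2 against 1 was kept without WT replicate 3 or without HO replicate 3. Over the leave-one-out fits the log2 difference stayed between 1.44 and 1.69, and over all 17 alternatives the adjusted limma p ran from 0.0209 to 0.402.

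Cxcl1, the neighbouring gene with the same receptor, read 447 in WT, 387.8 in HE and 566.4 in HO on number 1. It read 1670, 1010 and 880.5 on number 2 and 957.9, 845.1 and 555.8 on number 3. Number 2 was the highest in every genotype and lay above all arrays of number 1, while number 3 overlapped number 1. The log2 difference was 1.31 ± 0.24 in number 2 against 1 (limma adjusted p = 0.174) and 0.73 ± 0.24 in number 3 against 1 (0.317), so neither passed. Cxcl5, the third ligand of this group measured, was too dim for the test: it read 109.5, 255.2 and 152.7 in WT, 164.6, 804.8 and 206.2 in HE and 125.8, 499.9 and 110.4 in HO. Number 2 was again the highest in every genotype, and without the filter the log2 difference was 1.83 ± 0.30 (limma adjusted p = 0.402).

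The genotype differences of this group lay inside the spread between numbers. Cxcl2 was at -0.52 ± 0.53 in HO against WT and -0.44 ± 0.53 in HE. With the replicate number as a block these were -0.52 ± 0.18 and -0.44 ± 0.18, with unadjusted limma p of 0.0168 and 0.0368 and adjusted p of 0.826 and 0.999. Within numbers 1, 2 and 3, HO minus WT was -0.24, -0.23 and -1.10. The block brought the members at unadjusted p under 0.05 to 3 of 24 in HO against WT, beside 5.95% of all probe sets, and to 2 of 24 in HE against WT, beside 4.35%; Cxcl2 was the member added in both, and none passed the adjusted threshold. Cxcl1 was at -0.46 ± 0.45 in HO and -0.37 ± 0.45 in HE.

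The promoters of Cxcl1 and Cxcl2, whose signals were both higher on number 2 than on number 1, are shown with those of Ccl9 and Cxcl12, whose brighter sets were highest and lowest on number 2; the dimmer sets of these genes did not follow that order in every genotype. The 4 were picked after their values were seen. Each is the 250 bases before the RefSeq start site on the strand of the gene, 5' to 3' (RefSeq, GRCm38.p6). They lie at chr5:90890995-90891244 (+) for Cxcl1, chr5:90903649-90903898 (+) for Cxcl2, chr11:83578637-83578886 (-) for Ccl9 and chr6:117168285-117168534 (+) for Cxcl12. Capitals mark matches, on either strand, to a form of the motif bound by the NF-kB transcription factors: GGG, then 2 bases of any kind, then TTTCC.
Cxcl1: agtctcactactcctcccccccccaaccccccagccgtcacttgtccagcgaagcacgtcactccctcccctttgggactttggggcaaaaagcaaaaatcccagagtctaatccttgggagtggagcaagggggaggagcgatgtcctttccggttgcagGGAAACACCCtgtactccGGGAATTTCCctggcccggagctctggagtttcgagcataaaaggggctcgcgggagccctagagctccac
Cxcl2: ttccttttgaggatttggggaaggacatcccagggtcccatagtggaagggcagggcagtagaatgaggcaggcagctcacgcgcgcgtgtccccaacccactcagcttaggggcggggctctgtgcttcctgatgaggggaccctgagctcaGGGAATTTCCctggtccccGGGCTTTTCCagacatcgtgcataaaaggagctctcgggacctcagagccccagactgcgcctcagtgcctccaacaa
Ccl9: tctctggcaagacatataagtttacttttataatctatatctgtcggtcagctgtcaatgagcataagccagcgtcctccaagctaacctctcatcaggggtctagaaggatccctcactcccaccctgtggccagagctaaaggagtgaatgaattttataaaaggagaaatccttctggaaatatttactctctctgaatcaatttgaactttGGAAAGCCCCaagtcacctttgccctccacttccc
Cxcl12: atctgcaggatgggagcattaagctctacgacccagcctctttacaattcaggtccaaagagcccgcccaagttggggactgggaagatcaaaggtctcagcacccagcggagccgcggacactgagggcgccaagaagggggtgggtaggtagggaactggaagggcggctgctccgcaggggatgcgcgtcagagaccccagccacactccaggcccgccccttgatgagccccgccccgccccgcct

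The window of Cxcl1 held 2 matches, which began 89 and 71 bases before the start site, and that of Cxcl2 held 2, which began 97 and 78 bases before it. Ccl9 held 1, which began 35 bases before the start, and Cxcl12 held none. Ccl27a and Cxcl10, which were also highest on number 2 in every genotype, had windows with no match. Among all 32851 promoter windows of this length, 464 (1.41%) held a match. A promoter was listed for 28 of the 40 chemokine and receptor genes, and 5 held a match: Ccl20, Ccl9, Ccr3, Cxcl1 and Cxcl2. The other motif searched, TGANTCA, a form of the site bound by AP-1, was in 6.75% of all windows and in those of 5 member genes, Ccl9, Ccl27a, Ccr3, Ccr4 and Cxcl10. The motifs do not overlap in any of these windows. A match describes letters only, and binding was not measured.

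Cxcl1 and Cxcl2 are neighbours on chromosome 5. In all, 20 of the 40 genes fall into 6 runs of chemokine or receptor genes with at most 2 other protein-coding genes between neighbours. The run of Ccl9, Ccl6, Ccl3 and Ccl4 on chromosome 11 had 3 genes tested. Ccl9, which acts through Ccr1 on monocytes and neutrophils, read 1269.7, 2818.3 and 1546.9 in WT, 1644.6, 2400.8 and 2075.9 in HE and 1758.3, 2124.8 and 1730.7 in HO at its brighter set. Number 2 was the highest in every genotype. The log2 difference in number 2 against 1 was 0.66 ± 0.17 (limma adjusted p = 0.278) at this set and 0.71 ± 0.19 (0.282) at the other.

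Ccl4, a ligand made by macrophages and lymphocytes, read 1141.6, 1504.5 and 1179.9 in WT, 1170.4, 1595.1 and 879.1 in HE and 1126.9, 1390.2 and 1229.3 in HO. The 3 arrays of number 2 were above all the others. The log2 difference was 0.38 ± 0.15 in number 2 against 1 and -0.46 ± 0.15 in number 3 against 2, with limma adjusted p of 0.391 and 0.511. Ccl6, between them, was at 0.05 ± 0.20 in number 2 against 1 at its brighter set. Ccr7 read 350.3, 566.8 and 479.9 in WT, 423, 596 and 526.3 in HE and 479.9, 554.4 and 458.9 in HO, a log2 difference of 0.47 ± 0.14 in number 2 against 1 (limma adjusted p = 0.293).

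Cxcl12 and Cxcl13 had other orders at 1 probe set each. Cxcl12 read 8407.8, 5567.2 and 9876.4 in WT, 7174.7, 6493.4 and 10687.3 in HE and 7737.8, 7248.6 and 9475.2 in HO at its brighter set. Number 2 was the lowest and number 3 the highest in every genotype, with a log2 difference of 0.64 ± 0.14 in number 3 against 2 (limma adjusted p = 0.502). The other Cxcl12 set read from 1609.1 to 2302.2 and was at -0.11 ± 0.15, so the sets disagreed in sign. At the dimmer Cxcl13 set number 1 was the highest and number 3 the lowest in every genotype, with -0.56 ± 0.13 in number 3 against 1 (limma adjusted p = 0.236), and was at -0.30 ± 0.19 at the brighter.

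**Figure D4:**
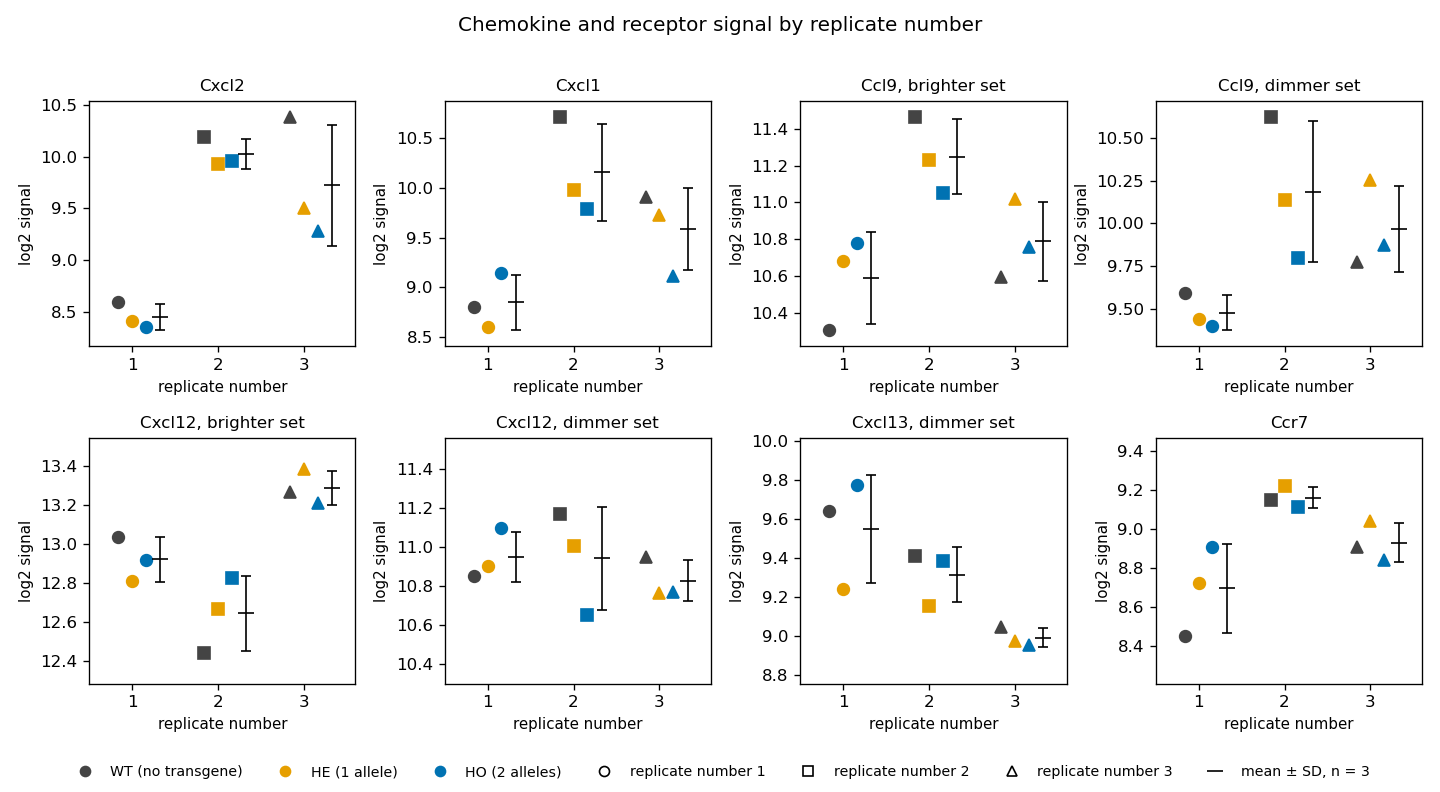
Log2 signal of 8 chemokine and receptor probe sets by replicate number, with 1 point per array, colour for genotype, and mean ± SD (n = 3); each panel has its own range. All 3 points of number 1 lie below the rest for Cxcl2, and number 2 is the lowest group for the brighter Cxcl12 set.

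The same number was the highest in all 3 genotypes for 7 of 24 members (29.2%), beside 17.5% of all probe sets, and the lowest for 5 of 24 (20.8%), beside 17.9%. Arrays of number 2 and number 1 did not overlap for 6 of 24 (25%), beside 16% of all. For number 3 and number 1 this was 6 of 24 (25%) beside 20.5%, and for number 3 and number 2 it was 6 of 24 (25%) beside 14.2%.

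Marker lists were read beside these differences. The neutrophil sums ran from 14521.9 to 30745.7 on number 1, 12580.5 to 52214.6 on number 2 and 13290.2 to 68803.4 on number 3. Of the 8 tested neutrophil markers, 7 were higher in number 2 against 1 (median log2 difference 0.24) and 6 in number 3 against 1 (0.37). In each contrast 1 of the 8, Ltf, had an unadjusted limma p under 0.05, beside 11.2% and 11.6% of all probe sets. Ltf was lower in both, at -0.955 ± 0.293 and -0.863 ± 0.293. The 8 fibroblast and smooth muscle markers summed to between 60540.1 and 65544.6 on number 1, 49246 and 56100.3 on number 2 and 52693.4 and 62981.1 on number 3. The 5 airway epithelial markers summed to between 187263.8 and 212798.5 on number 1, 152897.6 and 182824.4 on number 2 and 141674.4 and 161504 on number 3. Number 1 was above number 2 in both of these lists. In number 2 against 1, all tested markers were lower for fibroblast and smooth muscle (8 of 8, median log2 difference -0.27), airway epithelium (5 of 5, -0.19), alveolar epithelium (7 of 7, -0.07), alveolar macrophages (7 of 7, -0.07), platelets (5 of 5, -0.23) and cardiac muscle (4 of 4, -0.38). The 1 tested adipocyte marker, Adipoq, was at -1.91 ± 0.49, and Lyve1, of lymphatic endothelium, at 0.80 ± 0.14 (limma adjusted p = 0.271 and 0.162). On log2 and against the WT mean, Adipoq was at -0.02 and -0.15 on numbers 1 and 2 in WT. It was at 0.62 and -1.44 in HE and 1.10 and -2.44 in HO, so its difference came mainly from the transgenic arrays. Of the other lists, 5 of 6 B cell, 6 of 11 T and NK cell, 5 of 10 monocyte and interstitial macrophage, 2 of 4 dendritic cell, 3 of 7 endothelial and 3 of 4 lymphatic endothelial markers were higher. The part of these cells in the chemokine differences was not tested.

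Other members are given by ligand and receptor. The ligands of Cxcr3, Cxcl9, Cxcl10 and Cxcl11, are induced by interferon; all were below the filter, with Cxcl9 between 67.2 and 377.5 and Cxcl10 between 146.4 and 397.4. Both Cxcl9 and Cxcl10 were lowest on WT replicate 1 and highest on WT replicate 2. Cxcr5, the B cell receptor of Cxcl13, ran from 286.6 to 610.8, below the filter. Cxcr6, a receptor of tissue T cells, ran from 551.3 to 747.2 at its tested set, with log2 differences of 0.02 ± 0.16 in HO and -0.11 ± 0.16 in HE against WT. Its ligand Cxcl16 was at -0.02 ± 0.12 in HO and 0.00 ± 0.12 in HE.

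Ccr6, the receptor of Ccl20, ran from 841.9 to 1253.4 and was at 0.00 ± 0.16 in HO and 0.06 ± 0.16 in HE. Ccl20, a mucosal ligand, ran from 96.3 to 428.3 in WT alone. Ccl22, which shares Ccr4 with Ccl17, read 362.8, 293.3 and 220.2 in WT, 309.4, 201.3 and 219.7 in HE and 414.6, 637.6 and 221.4 in HO. Like Ccl17, its highest value was on HO replicate 2, and its genotypes overlapped. Ccr1, a receptor of monocytes and neutrophils, read 264.2, 660 and 323.1 in WT, 270.7, 602.3 and 1189.1 in HE and 325.5, 493.8 and 389.4 in HO. HE replicate 3, its highest array, also had the highest neutrophil marker sum, and the part of those cells was not tested. The other Ccr1 set, also below the filter, ran from 73.1 to 213.6. There every HO array lay below every HE array, while at the first set they overlapped. Without the filter, HO minus WT was -0.51 ± 0.31 at this other set and 0.05 ± 0.56 at the first.

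Among the 52 probe sets with no filter, 0 passed in any genotype contrast (limma with Benjamini-Hochberg adjustment), and 5, 3 and 2 had an unadjusted p under 0.05 in HO against WT, HE against WT and HO against HE, beside 5.41%, 4.38% and 3.46% of all probe sets in that fit. Ccr10, the receptor of Ccl27a and Ccl28, read 138.6, 125.1 and 131.4 in WT, 193.8, 104.4 and 222.2 in HE and 428.7, 233.8 and 418.8 in HO. Every HO array was above every other array, and the log2 difference in HO against WT was 1.40 ± 0.33 (limma adjusted p = 0.878). Ccl28, a mucosal ligand, read 154.1, 212.5 and 143.5 in WT, 92.9, 79 and 97 in HE and 88.7, 64.2 and 123.6 in HO at its brighter set, where all transgenic arrays were below WT. Its log2 difference was -0.91 ± 0.26 in HO and -0.91 ± 0.26 in HE (limma adjusted p = 0.921 and 1), while the other Ccl28 set was at 0.86 ± 0.53 and 0.23 ± 0.53.

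Ccr4, the receptor of Ccl17, read 306, 321.3 and 277.5 in WT, 276.9, 220.4 and 256.7 in HE and 225.8, 250.1 and 270.3 in HO, again with all transgenic arrays below WT. Ccl24, an eosinophil ligand of Ccr3, read 128.3, 82.1 and 47.8 in WT, 213.4, 147.8 and 244.3 in HE and 272.8, 130.5 and 106 in HO, and HE lay above WT. Of 52 members, 5 had HO and WT arrays that did not overlap (9.62%), beside 9.35% of all probe sets, and 6 had such HE and WT arrays (11.5%), beside 8.44%. Among the latter was Ccl11, at 340.5, 382.9 and 390.2 in WT, 328.5, 249.5 and 273.3 in HE and 445.1, 259.3 and 404.1 in HO. Ccl3 was higher on all HO than all HE arrays, at 34.2, 184.9 and 164.7 against 25.5, 33.3 and 31.6. It overlapped WT, at 25.5, 88.1 and 226.8, and touched the floor. All 6 transgenic arrays lay below all WT arrays for 3 of 52 (5.77%), Cxcr4, Ccl28 and Ccr4, beside 2.41% for either direction over all probe sets. These 28 probe sets are dim, and their order on the arrays can rest on background.

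Lists of genes around the chemokines were tested in the same fit. Of 12 further chemokines and receptors, such as Cx3cl1 and the scavenging receptor Ackr1, 12 were measured and 8 tested. None was past the adjusted threshold in any contrast, and 0 had an unadjusted p under 0.05 in a genotype contrast. In number 3 against 1, 4 of 8 had one, beside 11.6% of all probe sets, 2 of them higher and 2 lower. Ackr2, which scavenges CC ligands, was at 0.61, and the platelet chemokine Pf4 at -0.32.

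Of 30 genes of receptor signalling, 25 were measured and 21 tested, with 0 past the adjusted threshold in any contrast by limma. In HO against WT and in HE against WT 1 of 21 each had an unadjusted p under 0.05, beside 4.49% and 3.11% of all probe sets. The median log2 difference was 0.00 in HO and -0.04 in HE, beside -0.01 in both over all probe sets. Of 16 proteases and proteoglycans that process or hold chemokines, 15 were measured and 12 tested, and 0 had an unadjusted p under 0.05 in HO or HE against WT. Their medians were -0.11 and 0.05.

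Of 26 inducers of chemokine genes, 24 were measured and 16 tested, with 0 past the adjusted threshold. Ltb, a membrane cytokine of lymphocytes, was at 0.74 ± 0.19 in HO against WT, and Il6ra, the receptor of interleukin 6, at 0.48 ± 0.15 in HE (limma adjusted p = 0.992 and 0.9997). In number 2 against 1, where Cxcl2 passed, 11 were higher and 5 lower with a median of 0.20, beside 0.00 over all probe sets, and 3 had an unadjusted p under 0.05, all higher, beside 11.2% of all. In number 3 against 1, where Cxcl2 was at 1.27 ± 0.18, 6 were higher and 10 lower with a median of -0.03. The 3 in number 2 against 1 were the interferon factor Irf1 at 0.55 ± 0.13, the NF-kB inhibitor Tnfaip3 at 0.42 and Stat3 at 0.33. In number 3 against 1, 1 of 16 had an unadjusted limma p under 0.05, beside 11.6% of all probe sets. It was again Tnfaip3, at 0.39. The list summed to between 72755.4 and 83597.9 on number 1, 86408.9 and 93841.8 on number 2 and 74095.9 and 90299 on number 3, and whether it took part in the chemokine differences was not tested.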

How the data were processed

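Lung RNA of 9 samples was read on Affymetrix 430A arrays, per the labels. The deposited series table holds linear intensity values, which from the values the authors had scaled to 1 trimmed mean of 1500.4; the sources used here do not name the summarising software. Intensities were raised to a floor (5th percentile, 25.5), put on log2, and filtered on mean log2 (40th percentile, 8.90), leaving 13576 probe sets after 64 controls were removed. Genotype means were fitted to all 9 arrays with limma 3.58.1 in R 4.3.3 (lmFit, eBayes) with Benjamini-Hochberg adjustment over all tested probe sets at 0.05; replicate numbers were fitted with genotype as a term. The fits were checked on simulated data. No 2 arrays were copies (smallest median absolute log2 difference 0.183). Arrays have no count depth, so their number limits precision.

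For arrays of the same number, deviations from the genotype mean correlated at 0.193, 0.139 and 0.276 for HO with WT. The correlations were 0.301, 0.05 and 0.043 for HE with WT and 0.156, 0.15 and 0.028 for HO with HE. Arrays of different numbers were not compared in this way, so these values cannot decide whether the number pairs the samples. The labels do not say what it marks. The main genotype fits did not use the number, and a fit with it as a block was an alternative.

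Symbols came from the platform annotation; 52 of 52 probe sets matched the RefSeq gene table (GRCm38.p6). Probe sets ending in _s_at or _x_at may bind several transcripts, so Ccl27a and single sets of Ccl6 and Cxcl16 are uncertain. Named were the 8 members of highest signal and the 8 of lowest p across numbers. Also named were the 4 of lowest p in each direction of each genotype contrast, and ligand and receptor pairs. Of the pairs, Ccr3, Ccr9, Ccl25 and Cxcl11 were below the filter and are given without values. Ccr10, Ccl28, Ccr4, Ccl24, Ccl11 and Ccl3 were singled out for their arrays after seeing values. Members, lists and motifs were chosen with earlier results of these data known.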

Additional observations from a re-analysis of the deposited data

How the results depend on the processing

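Alternatives covered quantile and median scaling, no floor or a floor at the 20th percentile, array weights, no filter and a 60th percentile filter, a trended and robust prior, contrasts fitted to their own arrays, HO replicate 2 counted as HE, the replicate block and leaving out each array. Median scaling moved the member median in HO against WT from -0.02 to 0.03, so its sign is not settled. Of 36 named values, 28 never reversed. These 28 include the F test values across numbers, which have no sign and could not reverse. Reversed with HO replicate 2 as HE were Ccl9 in HO against WT (-0.02), and Ccl17 (-0.032) and Cxcl13 (0.032, brighter set) in HO against HE. On leaving out 1 array, ranges that crossed 0 were Ccr7 -0.072 to 0.275 in HO and -0.032 to 0.315 in HE, Ccl9 -0.164 to 0.411 in HO and -0.05 to 0.525 in HE, Ccl17 -0.012 to 0.324 in HE, and Ccl8 -0.058 to 0.398 in HO against HE.

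Members at unadjusted p under 0.05 in HO against WT (2) became 5 with no filter and 3 with the replicate block. They became 1 with the 60th percentile filter, the trended prior, own arrays or HO replicate 2 as HE (1 to 3 on leaving out an array). In HE against WT (1) they became 3 with no filter and 2 with HO replicate 2 as HE or with the replicate block (1 to 2 on leaving out an array). In HO against HE (0) they became 2 with no filter and 1 with HO replicate 2 as HE (0 to 1). In the genotype F test (1) they became 3 with no filter and 2 with HO replicate 2 as HE or the replicate block (1 to 1). All probe sets past the adjusted threshold (0) became 2 with no filter in HE against WT, HO against HE and the F test. On leaving out an array they ran from 0 to 1 in HO against WT, HE against WT and the F test, the 1 coming without WT replicate 1, and from 0 to 0 in HO against HE. The block made no other change to these counts.

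Across numbers, probe sets past the F test (2) became 1 with quantile or median scaling or the 60th percentile filter, 5 with the trended prior and 0 with no filter or with HO replicate 2 as HE (0 to 1 on leaving out an array). Members past it (0) became 1 with the trended prior, and members at unadjusted p under 0.05 (8) became 13 with no filter and 4 with the 60th percentile filter (6 to 10). In number 2 against 1, probe sets past the threshold (4) became 9 with the trended prior and 0 with no filter or with HO replicate 2 as HE (0 to 6). Cxcl2 as the called member was lost, leaving 0, with quantile scaling, no filter, the 60th percentile filter (which removes it) and HO replicate 2 as HE (0 to 1). Members at unadjusted p under 0.05 (6) became 12 with no filter and 3 with the 60th percentile filter (5 to 8).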
